A study of Rattus norvegicus with 6 samples.

Results

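The cholesterol synthesis genes Hmgcs1, Idi1, Fdps, Fdft1, Sqle, Lss and Cyp51 and the pathway regulator Insig1 were followed in mesenchymal stromal cells in culture, spindle-shaped cells that stick to plastic and can form bone, fat and cartilage. The genes were chosen by name, and every probe set that the platform annotation gives to one of these symbols alone was used. This found 11 probe sets for 7 of the 8 genes among 15923 probe sets on the array. Idi1, Fdft1, Lss and Cyp51 had a pair of probe sets each and Fdps, Sqle and Insig1 a single one. No probe set carries the symbol Hmgcs1 in the annotation used here, so this gene has no value. All 11 probe sets passed the filter on signal (above the median of all values, 8.18, on at least 3 of the 6 arrays), as did 8135 of all probe sets.

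RNA was measured on Affymetrix RAE230A arrays, 1 per culture. The cultures were 3 peripheral blood derived stromal cell cultures (blood cultures) and 3 bone marrow derived ones (marrow cultures), a blood and a marrow culture from each of 3 rats named S4, S5 and S6. All 3 rats carried a GFP transgene, so both groups share it, and its promoter is not given in the sources used here. Cells of both sources came off the same density gradient, were grown in the same medium with 15% fetal bovine serum, and were harvested at passage 2, and no treatment is named. The age of the rats is not given in the labels. Each array reads the bulk RNA of an adherent population, so fewer cells of a type and less RNA per cell cannot be told apart.

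Array medians lay between 8.12 and 8.22 on the deposited scale, which was taken as log2. All 11 stromal markers examined were above the filter on signal, and so were 9 of 12 macrophage and leukocyte markers, Ptprc, Csf1r and Itgam being dimmer. The beta-actin 3′ minus 5′ signal was 0.24 to 0.38 on the 6 arrays and that of GAPDH 0.21 to 0.30. The arrays of rats S4 and S5 were run on 1 fluidics station and both arrays of rat S6 on the other, so rat S6 and its station cannot be told apart. The blood minus marrow difference within a rat always compares arrays of the same station, but of different modules of it. In rats S4, S5 and S6 the blood arrays were on modules 1, 3 and 1 and the marrow arrays on 2, 4 and 2. No module held both sources, so module and source cannot be told apart.

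Animal cells make cholesterol from acetyl-CoA through mevalonate. Isoprene units made from mevalonate are joined to farnesyl diphosphate and then to squalene, which is oxidised, folded into the first sterol, lanosterol, and trimmed to cholesterol. When membranes run low in sterol, SREBP2 is released from the endoplasmic reticulum, is cut in the Golgi and switches on nearly the whole pathway. When sterol is plentiful, INSIG1 holds the SREBP escort SCAP in the endoplasmic reticulum, and INSIG1 is itself a target of SREBP. Cultured stromal cells also take up cholesterol from the lipoproteins of serum.

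Of these genes, Lss alone passed the test between the groups. It was lower in blood cultures in all 3 rats, while none of the other 6 measured genes passed the test, and these varied together from array to array. The promoters of 4 of these genes are shown because Fdps, Insig1 and Cyp51 followed one another across the arrays and Lss followed them less closely. They come from RefSeq (build GRCr8), 250 bases before to 50 after the gene start, which had an entry for 6 of the 8 genes. Letters in capitals mark the box CCAAT, or ATTGG where it lies on the other strand, which the factor NF-Y binds and which often accompanies SREBP sites.
Fdps, chr2:176804767-176805066, minus strand: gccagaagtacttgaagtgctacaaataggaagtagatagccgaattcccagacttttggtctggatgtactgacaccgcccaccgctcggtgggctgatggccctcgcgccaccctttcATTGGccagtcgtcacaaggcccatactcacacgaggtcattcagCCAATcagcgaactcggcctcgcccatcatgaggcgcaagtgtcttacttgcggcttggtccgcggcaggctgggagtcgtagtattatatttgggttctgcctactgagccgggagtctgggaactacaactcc
Insig1, chr4:8057720-8058019, minus strand: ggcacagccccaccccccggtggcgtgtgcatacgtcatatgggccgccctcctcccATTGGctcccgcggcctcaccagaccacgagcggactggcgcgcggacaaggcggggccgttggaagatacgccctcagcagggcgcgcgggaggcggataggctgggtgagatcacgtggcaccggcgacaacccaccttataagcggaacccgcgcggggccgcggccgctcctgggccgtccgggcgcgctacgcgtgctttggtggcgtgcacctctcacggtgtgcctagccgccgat
Cyp51, chr4:30991443-30991742, plus strand: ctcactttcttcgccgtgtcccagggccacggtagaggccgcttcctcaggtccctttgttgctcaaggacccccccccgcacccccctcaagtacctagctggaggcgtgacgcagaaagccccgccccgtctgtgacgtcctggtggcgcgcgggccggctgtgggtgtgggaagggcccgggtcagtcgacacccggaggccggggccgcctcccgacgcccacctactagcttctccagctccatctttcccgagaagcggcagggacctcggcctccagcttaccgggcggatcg
Lss, chr20:12118181-12118480, minus strand: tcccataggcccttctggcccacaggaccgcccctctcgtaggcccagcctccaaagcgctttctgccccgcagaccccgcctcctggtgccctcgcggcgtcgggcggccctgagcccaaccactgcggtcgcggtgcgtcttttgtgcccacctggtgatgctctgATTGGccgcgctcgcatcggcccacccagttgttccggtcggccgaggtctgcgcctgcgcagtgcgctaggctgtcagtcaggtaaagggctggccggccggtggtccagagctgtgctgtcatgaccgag
At least 1 CCAAT box was found on either strand in 5 of the 6 promoters, those of Hmgcs1, Idi1, Fdps, Insig1 and Lss, and none in that of Cyp51. Of all 33469 promoters of that length in the table, 37.5% hold one. The core of the classical sterol regulatory element, searched as TCACNCCAC on both strands, was found in 0 of the 6 and in 1.12% of all promoters. These are matches of letters in a short window and say nothing of binding. Lss, Fdps and Insig1 thus all hold the box, Fdps with 2 and Lss and Insig1 with 1 each, at different distances from the start.

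Lss encodes lanosterol synthase, which folds oxidised squalene into lanosterol. Its brighter probe set stood at 10.26, 9.91 and 10.51 log2 units in the blood cultures of rats S4, S5 and S6, against 11.04, 10.95 and 11.47 in their marrow cultures. Every blood culture lay below every marrow culture, with a gap of 0.44 between the groups. The log2 difference, blood minus marrow, was -0.93 ± 0.12 (SE), or 0.526 times the marrow signal, with an adjusted p of 0.0285 in limma fitted with the rat as a term. The dimmer probe set read 9.00, 8.52 and 8.93 in blood cultures, against 9.98, 10.01 and 10.45 in marrow cultures. These groups did not overlap either, and the gap was 0.98. The difference on this probe set was -1.33 ± 0.15, or 0.398 times the marrow signal (adjusted p = 0.0185).

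Lss thus accounts for both of the 2 probe sets called, at an adjusted p under 0.05, among the 11, both lower in blood cultures. Over all tested probe sets 175 of 8135, or 2.15%, were called, 1.17% lower and 0.983% higher. Groups that do not overlap, with blood below marrow, were seen for 11.3% of 8113 probe sets with complete values. The Lss calls rest on few arrays. Both were lost without a filter on signal (adjusted p = 0.0954 and 0.0718) and, for the brighter and the dimmer probe set, on leaving out rat S4 (0.246 and 0.178) or rat S6 (0.222 and 0.144). Ignoring the pairing by rat gave 0.103 and 0.0264. The difference itself was similar on both fluidics stations, at -0.91 over rats S4 and S5 and -0.96 in rat S6 on the brighter probe set.

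**Figure D1:**
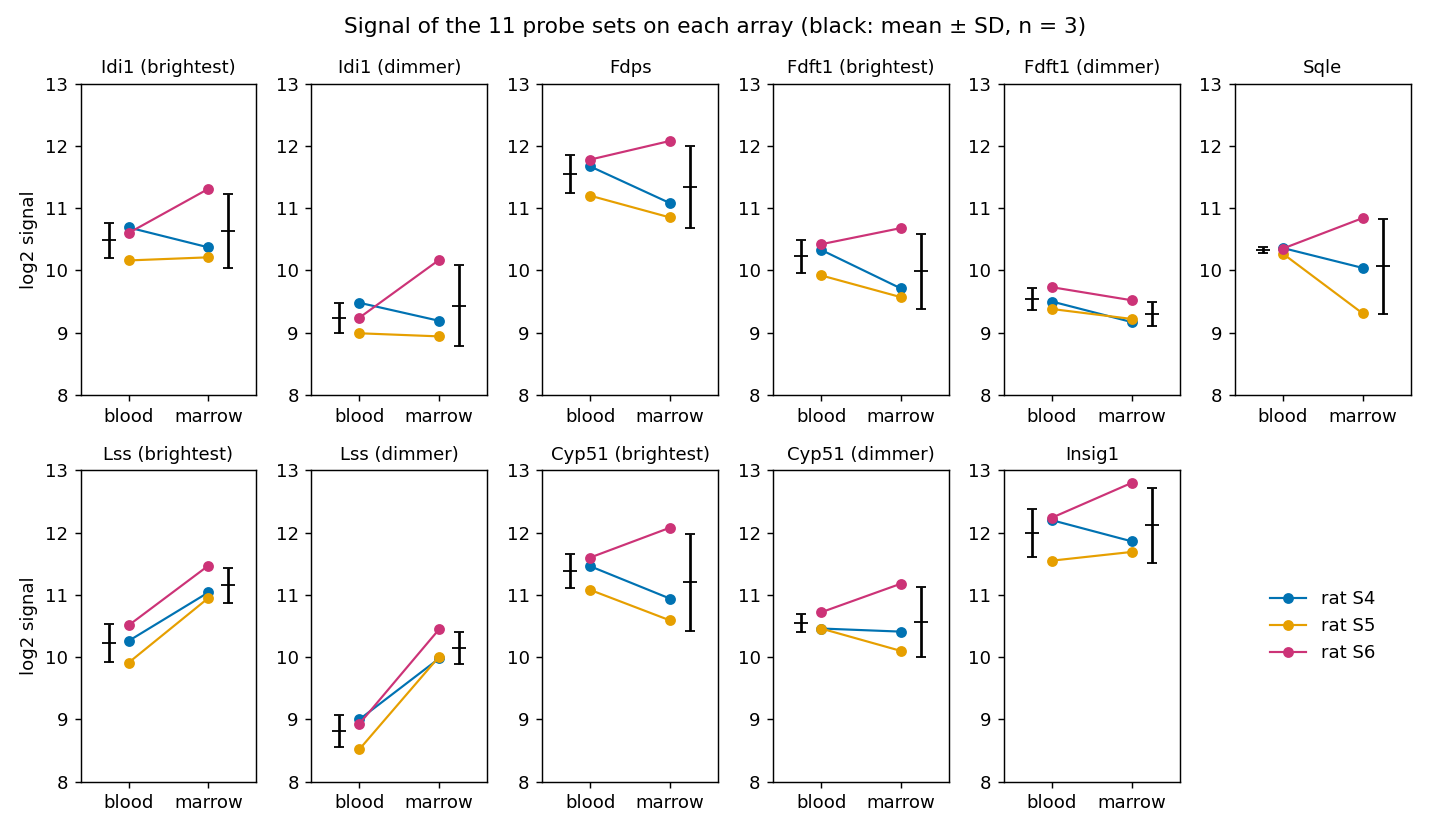
Log2 signal (vertical axes) of the 11 probe sets in blood and marrow cultures, with a line joining the cultures of each rat and black bars for the mean ± SD of 3 arrays. Both Lss probe sets slope up to marrow in every rat, while for the other genes the lines of rats S4 and S6 mostly cross or slope opposite ways, and the marrow culture of rat S6 is the highest of the 6 on all but the dimmer Fdft1 probe set.

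The enzymes that act before Lss did not pass. Idi1, isopentenyl diphosphate isomerase, which interconverts the isoprene units, stood at 10.69, 10.16 and 10.60 in blood cultures, against 10.37, 10.21 and 11.31 in marrow cultures. The blood values lay inside the marrow range except for rat S5, which was the lowest array by a narrow margin. Its difference was -0.15 ± 0.21 (95% interval -0.68 to 0.38), and that of its dimmer probe set -0.20 ± 0.25 (adjusted p = 0.863 and 0.837).

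Fdps, farnesyl diphosphate synthase, which joins the isoprene units, stood at 11.67, 11.20 and 11.78 in blood cultures, against 11.08, 10.85 and 12.08 in marrow cultures. All 3 blood values lay within the marrow range, and the difference was 0.21 ± 0.20 (interval -0.27 to 0.70, adjusted p = 0.754). Fdft1, squalene synthase, the first enzyme committed to sterols, read 10.33, 9.92 and 10.42 in blood cultures, against 9.71, 9.57 and 10.68 in marrow cultures. Again the marrow cultures of rats S4 and S5 were the lowest arrays and that of rat S6 the highest. Its difference was 0.24 ± 0.19 (interval -0.24 to 0.72, adjusted p = 0.713). The dimmer Fdft1 probe set gave a like difference of 0.23 ± 0.12, but was higher in the blood culture of every rat (adjusted p = 0.475).

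Sqle, squalene epoxidase, makes the substrate of Lss. Its signal was 10.36, 10.27 and 10.35 in blood cultures, against 10.04, 9.31 and 10.84 in marrow cultures. The 3 blood cultures thus lay within 0.09 of each other, while the marrow cultures spanned 1.53, the widest marrow range of the 7 genes. The difference was 0.26 ± 0.28 (interval -0.42 to 0.95, adjusted p = 0.794).

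Cyp51, the lanosterol demethylase that uses the product of Lss, stood on its brighter probe set at 11.46, 11.08 and 11.60 in blood cultures, against 10.94, 10.59 and 12.08 in marrow cultures. The marrow culture of rat S6 was again above, and those of rats S4 and S5 below, all blood cultures. The difference was 0.18 ± 0.23 (interval -0.39 to 0.74), and -0.02 ± 0.18 on the dimmer probe set (adjusted p = 0.837 and 0.990). The enzymes directly before and after Lss in the pathway therefore did not share its call.

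Insig1, the sterol-sensing anchor of the SREBP escort, stood at 12.20, 11.55 and 12.24 in blood cultures, against 11.86, 11.69 and 12.80 in marrow cultures. The groups overlapped, and the blood culture of rat S5 was the lowest array. The difference was -0.12 ± 0.19 (interval -0.60 to 0.36, adjusted p = 0.881). For the 6 genes other than Lss the intervals include 0 and reach no further than 0.95 in either direction.

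Taking the brightest probe set of each gene, 1 of 7 was called lower, none was called higher and 6 did not pass, beside 1.16% of 6110 tested genes called lower. The median difference of the 7 was 0.18, against -0.01 over all tested genes. The rats disagreed: the median of the 7 was 0.34 in rat S4, 0.35 in rat S5 and -0.49 in rat S6, where the medians over all tested genes were 0.10, -0.09 and -0.04. In rat S6 all 7 were lower in the blood than in the marrow culture, with differences of -0.26 (Fdft1) to -0.96 (Lss). In rat S4 all but Lss were higher in the blood culture, so 6 of 7 had opposite signs in these 2 rats. The same pair of signs was seen for 31.3% of all genes. In rat S5 the blood culture was the higher for 4 of the 7. For Fdps, Fdft1, Sqle and Cyp51 the split also runs along the fluidics stations, as rats S4 and S5 had the same sign. Idi1 and Insig1 were slightly lower in the blood culture of rat S5 (-0.05 and -0.14), as in rat S6, and Lss was lower in all 3 rats. The size of the differences varied by gene. On the station of rats S4 and S5 the differences of Fdps and Sqle averaged 0.47 and 0.64. Those of Idi1, Insig1 and Lss averaged 0.135, 0.10 and -0.91 there. On the station of rat S6 the differences of Fdps and Sqle were -0.30 and -0.49, and those of Idi1, Insig1 and Lss -0.71, -0.56 and -0.96.

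On the brightest probe sets the marrow cultures carried most of this spread. The range over the 3 marrow cultures was at least 1 log2 unit for 6 of the 7 genes (1.10 to 1.53) and 0.52 for Lss, beside 5.09% of all genes with such a range. Over the 3 blood cultures no range reached 1 (0.09 to 0.69), beside 6.22% of all genes. The marrow culture of rat S6 was the highest of the 6 arrays for all 7 genes, as it was for 25.1% of all genes. Rat S5 gave the lowest blood and also the lowest marrow culture for all 7, beside 21.5% of all genes. The dimmer probe sets of Lss and Fdft1 were instead lowest in rat S4 among marrow cultures (9.98 and 9.17). That of Cyp51 read 10.46 in the blood cultures of both rats S4 and S5. These patterns were picked out after the values were seen and each rests on 1 culture per rat and source.

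To ask how far the genes moved together, each was set to its own mean over the 6 arrays. The mean of the 7 was then 0.09, -0.32 and 0.17 in the blood cultures of rats S4, S5 and S6, and -0.19, -0.45 and 0.70 in the marrow cultures. These 6 means held 73.4% of the genes' sum of squares around their own means, where 7 unrelated genes would give about 14.3%. Without Lss, a choice made after its values were seen, they held 91.4%. Movement common to the other 6 genes thus took up nearly all of their variation.

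Pearson's r between pairs of genes over the 6 arrays had a median of 0.89 over the 21 pairs, beside 0.10 over all pairs of tested genes. These are descriptions without a test, since the 6 arrays are 3 pairs from 3 rats and every r uses the same arrays. Fdps and Fdft1 were the closest pair (r = 0.997), followed by Fdps and Cyp51 (0.991). Sqle and Insig1 were the least alike of the 15 pairs without Lss (0.74). Lss had r of only 0.04 with Sqle, 0.13 with Fdft1, 0.18 with Fdps and 0.23 with Cyp51. It was closer to Insig1 (0.55) and Idi1 (0.56).

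On its brighter probe set Lss did follow the others within each kind of culture. Once the blood mean and the marrow mean of each gene were taken out, r of Lss with the other 6 genes was 0.68 to 0.94. The median over all pairs of tested genes was 0.15. These r rest on 3 arrays per group and are descriptions without a test. Like all of them this probe set was lowest in rat S5, and like 4 of the 6 it was highest in rat S6, in both groups. The dimmer Lss probe set did not keep this order. It was highest in rat S4 among blood cultures (9.00) and lowest in rat S4 among marrow cultures (9.98). Set against the mean difference of the other 6 genes, the blood minus marrow difference of Lss lay at -1.23 in rat S4, -1.37 in rat S5 and -0.49 in rat S6. On its dimmer probe set the values were -1.43, -1.82 and -1.05. This gap had the same sign in all 3 rats and was smallest in rat S6, the rat in which the other 6 genes were also lower in the blood culture.

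**Figure D2:**
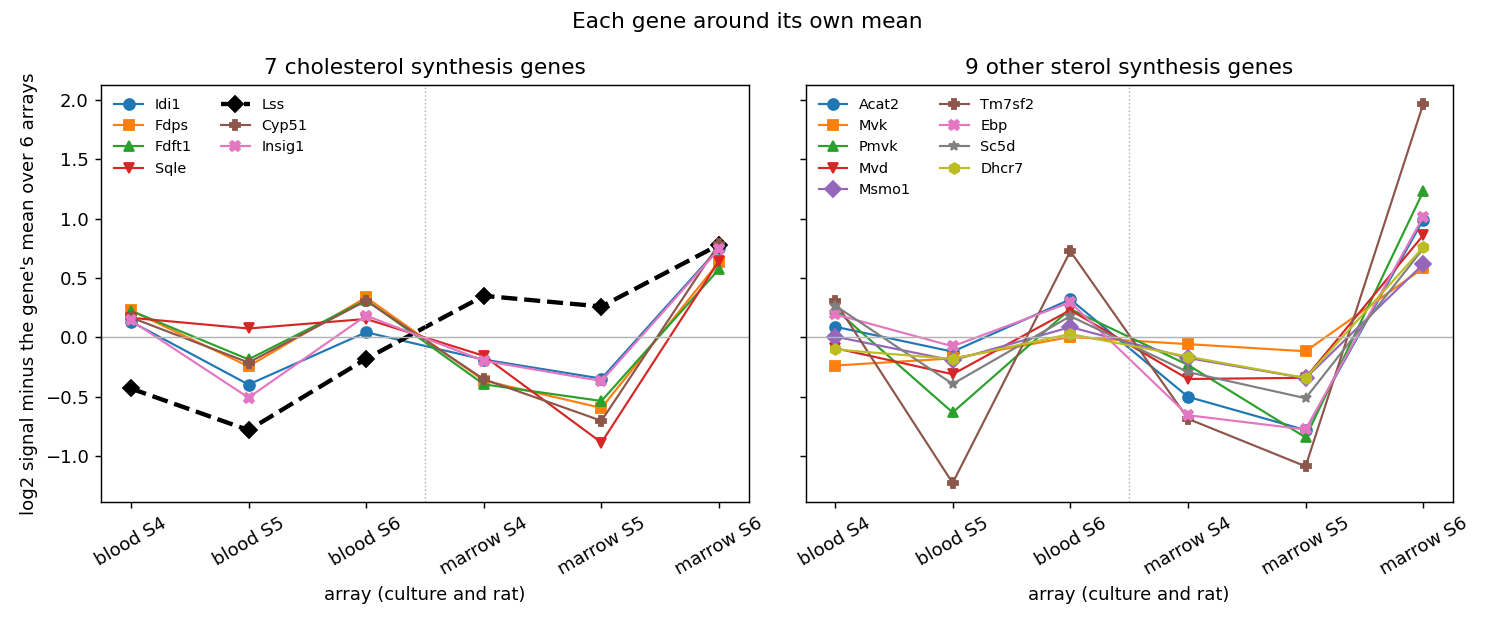
Log2 signal minus each gene's own mean over 6 arrays (vertical axis) for blood and marrow cultures of rats S4, S5 and S6, with the 7 measured genes at left (Lss dashed) and 9 other sterol synthesis genes at right, brightest probe set each. The lines run together and peak in the marrow culture of rat S6, while Lss lies lowest of the 7 in all 3 blood cultures and highest or near highest in marrow cultures.

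Other genes of sterol synthesis had a like profile. Of 15 listed, 12 were on the array and 9 were bright enough to be tested. None of the 9 passed (adjusted p 0.516 to 0.978). Their median difference was -0.10, and in rats S4, S5 and S6 the medians were 0.47, 0.15 and -0.67. All 9 were highest in the marrow culture of rat S6, and their array means held 76.7% of the sum of squares, where 9 unrelated genes would give about 11.1%. Tm7sf2, with a range of 3.19 over the arrays, weighs most in this share. The median r between pairs was 0.93. Nsdhl, Hsd17b7 and Lbr were on the array and dimmer than the filter.

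Acat2, the cytosolic thiolase at the start of the pathway, stood at 10.02, 9.81 and 10.25 in blood cultures, against 9.43, 9.15 and 10.92 in marrow cultures. Its values thus had the same order as those of Fdft1, with rats S4 and S5 lowest and rat S6 highest in marrow. The widest spread was that of Tm7sf2, a sterol reductase, at 8.94, 7.41 and 9.36 in blood cultures, against 7.95, 7.55 and 10.60 in marrow cultures. Msmo1, the sterol methyl oxidase that acts after Cyp51, ranged from 11.27 to 11.55 in blood cultures, against 11.12 to 12.08 in marrow cultures. The mevalonate pathway enzymes Mvk, Pmvk and Mvd differed by -0.27 ± 0.15, -0.10 ± 0.29 and -0.11 ± 0.20, and the later enzymes Ebp, Sc5d and Dhcr7 by 0.28 ± 0.32, 0.04 ± 0.23 and -0.17 ± 0.20. None of these 6 passed.

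Of the genes that sense and control sterol level, Mylip alone passed the test. Of 13 listed, 10 passed the filter, 1 was called lower, beside 1.16% of all tested genes, none was called higher and 9 did not pass. Their array means held 12.0% of the sum of squares, where 10 unrelated genes would give about 10.0%, but Mylip, with a range of 2.93 over the arrays, weighs most in this share. The median r between pairs was 0.23, and 6 of the 10 were highest in the marrow culture of rat S6. Srebf2, which encodes SREBP2, stood at 10.67, 10.42 and 10.59 in blood cultures, against 10.41, 10.56 and 10.92 in marrow cultures. The groups overlapped, with a difference of -0.07 ± 0.15 (adjusted p = 0.920). Its range over the 3 marrow cultures was 0.51, where the 7 genes above had 0.52 to 1.53. Scap, the SREBP escort, differed by 0.01 ± 0.11 and read 10.28 to 10.37 on all 6 arrays. Insig2, the relative of Insig1, differed by -0.12 ± 0.20, and Srebf1 by -0.20 ± 0.28. These values are RNA levels, while SREBP is controlled chiefly by its cleavage, which arrays do not measure.

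The gene called in that list was Mylip, which encodes IDOL, a ubiquitin ligase that marks lipoprotein receptors, among them the VLDL receptor, for breakdown. It stood at 7.77, 8.57 and 6.91 in blood cultures, against 9.82, 9.84 and 8.41 in marrow cultures. It was lower in the blood culture of each rat, although the groups overlapped. The difference was -1.61 ± 0.18 (adjusted p = 0.0162). The adjusted p was 0.256 without the pairing by rat, 0.0518 after quantile normalization, 0.0525 with arrays scaled to a common mean and 0.064 without a filter. Leaving out rat S4 or S6 gave 0.198 or 0.114. The level of blood cultures was near or below the table's median of 8.18, where no background is known, so the size is approximate.

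Among genes of cholesterol uptake, transport and storage, 9 of 15 listed were measured, 1 was called higher, none was called lower and 8 did not pass. Beside this, 0.867% of all tested genes were called higher. The gene called was Vldlr, the VLDL receptor, which binds lipoproteins rich in apolipoprotein E. Its brightest probe set stood at 11.86, 10.91 and 11.92 in blood cultures, against 10.01, 9.24 and 9.75 in marrow cultures. Every blood culture was above every marrow culture, by at least 0.90. Such a separation, with blood above marrow, was seen for 7.09% of all probe sets. The difference was 1.90 ± 0.14 (adjusted p = 0.00479), and the other probe sets of Vldlr gave 1.87 ± 0.16 and 1.85 ± 0.16 (adjusted p = 0.00677 and 0.00672). Without rat S4 or S6 the adjusted p of the brightest was 0.21 or 0.0525, at differences of 1.92 and 1.76.

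The other 8 included Abcg1, a cholesterol exporter, at 8.56, 8.28 and 8.21 in blood cultures, against 7.65, 7.94 and 7.38 in marrow cultures. These groups did not overlap, but the difference of 0.69 ± 0.16 did not pass (adjusted p = 0.120). Cyp27a1, a sterol hydroxylase, likewise differed by 0.62 ± 0.15 without overlap and did not pass (adjusted p = 0.142). Soat1, which esterifies cholesterol for storage, differed by 0.32 ± 0.12, and Apoe by -0.61 ± 0.27 (adjusted p = 0.328 and 0.414).

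Fatty acid synthesis genes, many of them targets of SREBP1, also varied together in part. Of 16 listed, 12 were measured and none passed in either direction. Their array means held 42.0% of the sum of squares, where 12 unrelated genes would give about 8.33%, and Scd, a fatty acid desaturase with a range of 3.56, weighs most in this share. The median r between pairs was 0.71, and 9 of the 12 were highest in the marrow culture of rat S6. Fasn, fatty acid synthase, stood at 10.84, 10.77 and 11.08 in blood cultures, against 10.40, 10.76 and 11.44 in marrow cultures, and differed by 0.03 ± 0.18. Acss2, which makes acetyl-CoA from acetate, and Acsl3, a fatty acyl-CoA synthetase, had the smallest p, at -0.65 ± 0.22 and -0.43 ± 0.15 (adjusted p = 0.262 and 0.294).

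**Figure D3:**
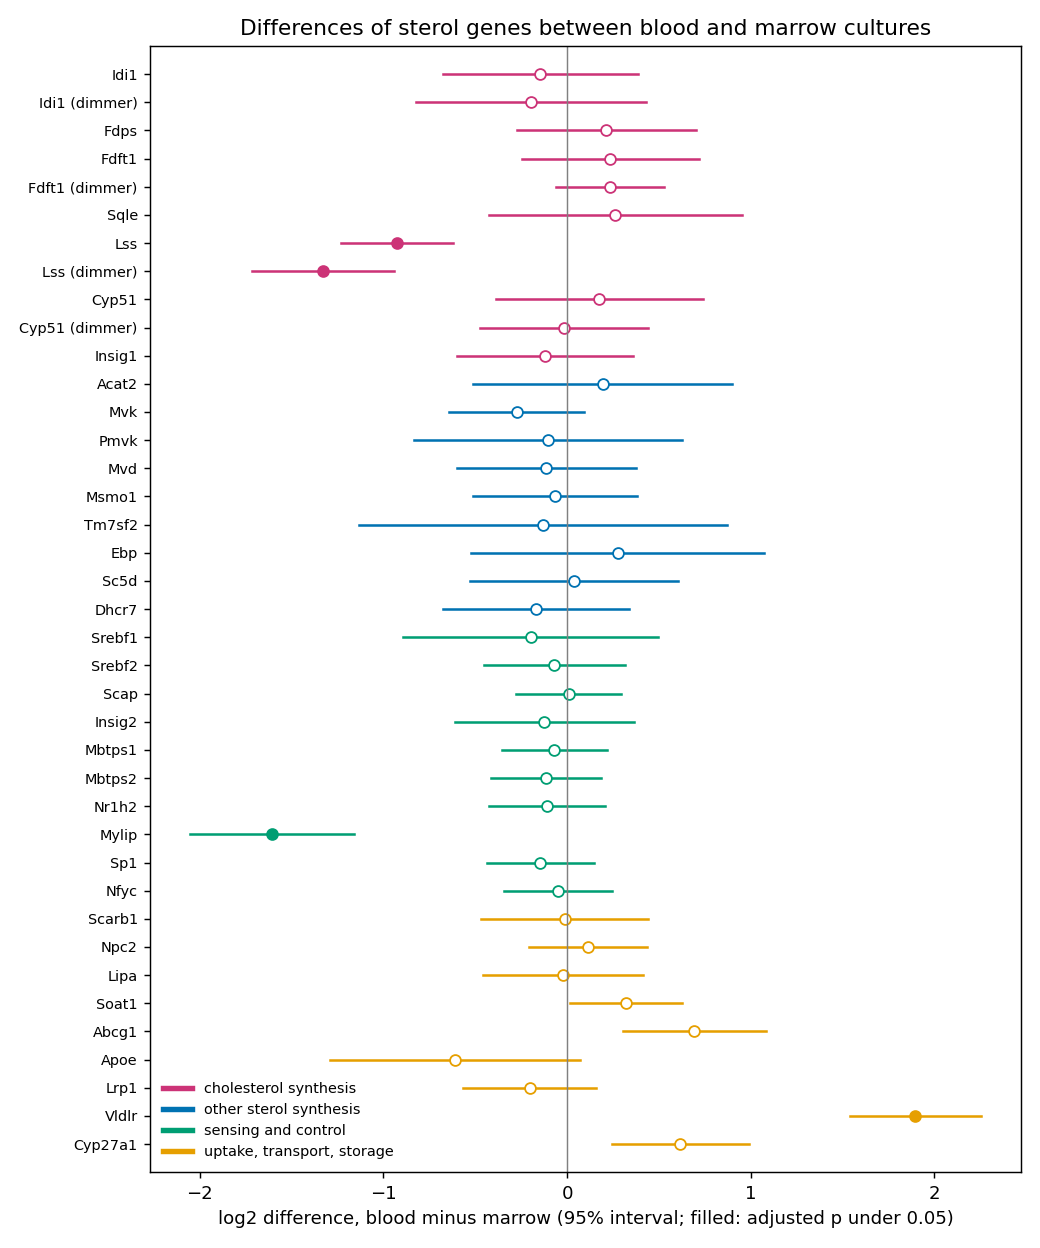
Log2 difference, blood minus marrow, with its 95% interval (horizontal axis) for the 11 probe sets and for the measured genes of 3 related lists, with filled points at an adjusted p under 0.05. Both Lss probe sets and Mylip lie left of 0 and Vldlr lies right of it, while the intervals of the other cholesterol synthesis genes include 0.

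Markers of macrophages and leukocytes moved partly along with these arrays. Their summed signal over 12 genes was 14.01, 13.49 and 13.99 log2 units in the blood cultures of rats S4, S5 and S6, against 12.88, 13.49 and 14.06 in the marrow cultures. This sum was highest in the marrow culture of rat S6, next in the blood cultures of rats S4 and S6, and lowest in the marrow culture of rat S4. The mean of the 7 cholesterol synthesis genes was instead lowest in the marrow culture of rat S5 (4 of the 7 genes were lowest there). By the median signal of the markers the blood culture of rat S4 was highest, at 10.145. The blood and marrow cultures of rat S6 followed, at 10.0 and 9.965. Of the 9 markers above the filter, 4 were highest in the marrow culture of rat S6. Lyz2 stood at 12.25, 10.85 and 12.38 in blood cultures, against 10.71, 11.27 and 12.51 in marrow cultures. Ptprc, the pan-leukocyte gene, was dim, at 7.15 to 7.77 in blood cultures, against 6.77 to 7.90 in marrow cultures on its brighter probe set, and no marker was at 0. The part of these cells in the common movement was not tested.

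Markers of dividing cells did not peak on the same array. Of 10 listed, 8 were on the array and 2, Mcm2 and Pcna, passed the filter. Their summed signal over 8 genes was 11.46, 11.53 and 11.39 log2 units in blood cultures, against 11.66, 11.93 and 11.67 in marrow cultures, highest in the marrow culture of rat S5, where the mean of the 7 cholesterol synthesis genes was lowest. By this sum all 3 blood cultures lay below the marrow cultures, as for Lss. Their median signal was 7.34, 7.545 and 7.53 in blood cultures, against 7.915, 8.0 and 7.485 in marrow cultures, so by the median the groups overlapped. The part of dividing cells in the Lss difference was not tested. The summed signal of the 11 stromal markers was 15.23 to 15.32 in blood cultures, against 15.03 to 15.30 in marrow cultures. Their median signal was 10.60, 10.54 and 11.01 in blood cultures, against 11.07, 11.22 and 11.22 in marrow cultures, so by this measure all blood cultures lay lower. Marker by marker the direction was mostly the other way. On the brightest probe sets 8 of the 11 had a difference above 0, with a median difference of 0.09. Of the 11, 1 was called, Eng, which was higher by 1.62 ± 0.23 (adjusted p = 0.038), beside 0.867% of all tested genes called higher. Pdgfra differed by -1.93 ± 0.35 without overlap and did not pass (adjusted p = 0.0681). Such a separation, with blood below marrow, was seen for 11.3% of all probe sets. Thy1 stood at 7.02, 9.42 and 7.41 in blood cultures, against 9.38, 7.68 and 9.84 in marrow cultures, so its sign differed between rats. The part of the stromal cells in the Lss difference was not tested. The trimmed mean signal of whole arrays ranged from 8.92 to 9.06 log2 units.

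**Figure D4:**
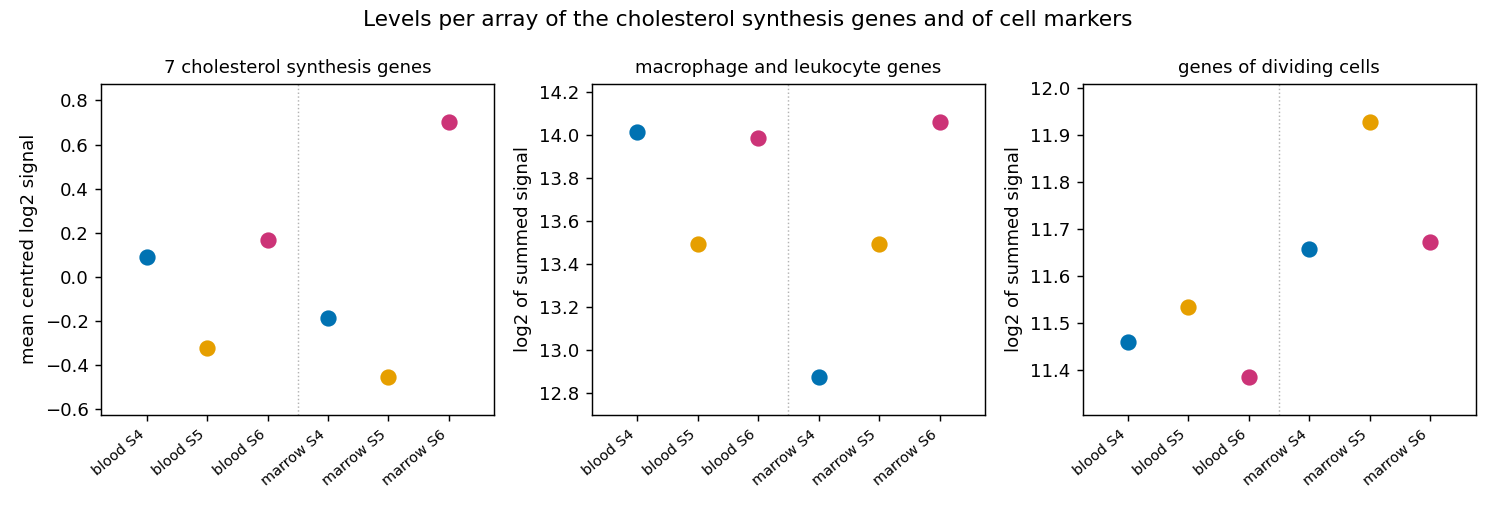
Mean centred log2 signal of the 7 cholesterol synthesis genes (left) and log2 of the summed signal of macrophage and leukocyte markers (middle) and of markers of dividing cells (right), per array, coloured by rat. The marrow culture of rat S6 is highest in the left and middle panels, at 0.70 and 14.06, and the marrow culture of rat S5 is highest in the right panel, at 11.93.

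Among 1241 other genes with an SD over the arrays of at least 0.3, those most like the mean profile of the 7 genes over the 6 arrays were Pmvk (r = 0.996), Abhd12 (0.990), Msmo1 (0.987), Tm7sf2 (0.985), Fam20c (0.985) and Rdh11 (0.984). Pmvk, Msmo1 and Tm7sf2 belong to the other sterol synthesis genes above. Abhd12 stood at 8.85, 8.42 and 8.83 in blood cultures, against 8.46, 8.35 and 9.32 in marrow cultures, and Fam20c at 10.59, 10.39 and 10.79, against 10.49, 10.28 and 11.29 in marrow cultures. Both had their highest array in the marrow culture of rat S6. None of the 6 passed the limma test between blood and marrow, with adjusted p of 0.893 to 0.991. They were picked for likeness to a profile whose blood and marrow means hardly differ, so this follows from the choice and is no separate result.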

How the data were processed

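Total RNA (10 µg) of 6 passage 2 cultures was labelled with biotin, per the labels' protocols, and 1 column of values per culture was used. The deposited log2 values were used as the authors gave them. Their base is read from their range, since it is not stated, and GCOS is the only tool named, per the submitters' processing notes; how probes were summarised and normalized is not recorded in the labels or headers. Across arrays 86 empty cells stayed empty. The deposited instrument records were read only for the fluidics station and module.

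Control probe sets (57) were removed, and a probe set was kept where its signal exceeded the median of all values (8.18) on at least 3 of 6 arrays. Blood was compared with marrow in limma 3.58.1 (lmFit, eBayes, R 4.3.3), a two-sided test with rat as a fixed term, and Benjamini-Hochberg adjustment over 8135 probe sets at 0.05. The design text pairs the cultures by animal. As a check, blood and marrow deviations from the group means gave r of -0.29 within rat S4, 0.30 within S5 and 0.33 within S6, against -0.47 to 0.42 between different rats, so the values themselves do not show the pairing. The brightest kept probe set stood for a gene, which gave 6110 genes. The small number of arrays limits precision.

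Members, gene lists and markers were chosen with earlier results of these data known. All 8 members and measured genes of the fixed lists were to be named, though some appear only in the counts or are not reported here, together with the 6 genes most like the members' profile. Alternatives were an unpaired fit, no or a stricter filter (all 6 arrays), quantile normalization, scaling to a common 2% trimmed mean, an intensity trend, the mean of a gene's probe sets, and leaving out each rat. Tables and figures were made with pandas 2.3.3, matplotlib 3.10.9, numpy 2.4.6 and Python 3.11.15.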

Additional observations from a re-analysis of the deposited data

How the results depend on the processing

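The 175 calls over all probe sets became 82 without a filter, 107 after quantile normalization and 109 with arrays scaled to a common trimmed mean, and 0 to 406 on leaving out a rat. With 0 calls in limma (without rat S4), 770 probe sets had an unadjusted p under 0.05. Of the 2 calls among the 11 probe sets, both of Lss, 1 remained without the replicate block, where the pairing by rat is ignored (adjusted p = 0.0264 for the dimmer probe set and 0.103 for the brighter), and 0 without a filter. Leaving out a rat gave 0 to 2. Both stayed in the other 4 settings that keep all rats. The difference of Lss ranged from -1.13 to -0.87 over 10 alternatives. The 2 calls in the related lists, Mylip and Vldlr, became 1 without the replicate block, without a filter, with a stricter filter (which Mylip does not pass), after quantile normalization and after scaling, and 0 to 3 on leaving out a rat. The median difference of the 7 genes ranged from -0.085 to 0.47 on leaving out a rat. On leaving out a rat 3 uncalled differences turned sign: Idi1 ranged from -0.38 to 0.135 and Insig1 from -0.35 to 0.10 (above 0 without rat S6), and Sqle from -0.085 (without rat S5) to 0.64. The cause was not tested. Leaving out a rat leaves 1 residual degree of freedom. Signals near the table's median have no known background, which limits the size of differences there.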
